A study of Mus musculus with 2 samples.

Results

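The genes described here are the histone genes of the mouse: 70 clustered genes, whose symbols begin with Hist1h to Hist4h, and 9 variant genes (H3f3a, H3f3b, H2afz, H2afv, H2afx, H2afy, H2afy2, H1f0 and H1fx). Members were taken by symbol from the transcript annotation and joined by gene identifier, which gave 79 of 55536 genes in the deposited gene table. Of the clustered genes, 67 are annotated as protein-coding and 3 as pseudogenes. The samples are hippocampus of female B6CASTF1/J mice, a cross of inbred strains, aged 18 to 20 months. Total RNA was depleted of ribosomal RNA, spiked with ERCC controls and made into 2 libraries from 300 ng each, with no other treatment and no second group. The libraries are numbered replicates 1 and 2 and carry separate biosample labels but one donor label, so whether they come from different animals is unknown and the spread between them may be technical. With 1 group there is no contrast, no p-value was computed, and every difference between replicates describes these 2 libraries.

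Histone proteins package DNA into nucleosomes. Core histones H2A, H2B, H3 and H4 form the particle and linker histone H1 binds the DNA between particles. Clustered genes are replication-dependent: they are expressed mainly in S phase, most lack introns, and their mRNAs end in a conserved stem-loop, bound by SLBP, in place of a poly(A) tail. Variant genes are transcribed throughout the cell cycle, and most have introns and give polyadenylated mRNAs. They supply neurons and other non-dividing cells with replacement histones such as H3.3 and H2A.Z. A library of total RNA, unlike one selected for poly(A), can hold both kinds of mRNA.

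The 3' stem-loop is shown first because it was found in most clustered genes and in only 1 variant. Each line gives 26 bases of the annotated transcript, 5′ to 3′, from GENCODE M21 (mm10), with both arms of the stem in capitals. The first is from Hist1h4h at chr13:23531453-23531478, plus strand.
Hist1h4h: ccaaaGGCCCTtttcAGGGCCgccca
Hist1h4j: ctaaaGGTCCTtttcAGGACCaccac
Hist2h4: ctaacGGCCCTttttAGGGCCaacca
Hist1h1c: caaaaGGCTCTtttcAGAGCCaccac
Hist1h3e: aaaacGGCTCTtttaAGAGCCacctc
H2afx: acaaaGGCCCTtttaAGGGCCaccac
The search, on the transcript strand and after the stop codon only, was for the histone stem-loop pattern: a left arm of GG, 3 pyrimidines and T, a loop of 4 bases, and a right arm that pairs with the left. It was found in 46 of 70 clustered genes and in 1 of 9 variants, H2afx, beside 0.109% of 58706 other protein-coding transcripts. H4 genes differ from the others in the stem: 10 H4 genes and H2afx hold the arm GGCCCT and 34 H1, H2A, H2B and H3 genes hold GGCTCT, while Hist1h4b and Hist1h4j hold GGTCCT. Of the 24 clustered genes without a match, 15 have an annotated model that stops within 10 bases of the coding end, so the window that could hold the stem-loop lies outside the model. The 3 pseudogenes have no annotated coding end to search from. Hist1h1a, Hist1h2bc, Hist1h2bq, Hist1h2br, Hist2h2be and Hist2h3b have a transcript that runs further and still gave no match. In Hist2h3b only 40 bases follow the coding end, and in Hist1h1a 51, stop codon included. The pattern begins 30 bases after the stop codon in Hist2h3c1 and Hist2h3c2. The models of Hist2h3b and Hist1h1a may thus be too short to hold it.

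Several clustered genes encode the same protein with different codons, and this sets how well their reads can be told apart. The first 60 coding bases of 5 H4 genes are printed with the bases that differ from Hist1h4h in capitals.
Hist1h4h: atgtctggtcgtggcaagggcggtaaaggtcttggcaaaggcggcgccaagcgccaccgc
Hist1h4k: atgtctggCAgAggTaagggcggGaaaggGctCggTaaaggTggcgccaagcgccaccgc
Hist1h4m: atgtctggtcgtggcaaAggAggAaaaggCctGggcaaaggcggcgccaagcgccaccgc
Hist1h4d: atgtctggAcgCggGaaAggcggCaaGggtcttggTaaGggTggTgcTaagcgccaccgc
Hist4h4: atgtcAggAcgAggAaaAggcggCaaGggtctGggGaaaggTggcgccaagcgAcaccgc
All 13 H4 genes encode one protein of 102 residues after the start. Over the whole coding sequence Hist1h4m differs from Hist1h4h at 10 bases, Hist1h4k at 14, Hist1h4d at 19 and Hist4h4 at 43. Hist1h4m and Hist1h4n have identical coding sequences, as do Hist2h2aa1 and Hist2h2aa2. The 76 protein-coding members encode 37 distinct proteins, taking the longest annotated protein of each variant and the most abundant transcript of each clustered gene.

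H3.3 is encoded by H3f3a on chromosome 1 and H3f3b on chromosome 11, and their coding starts are printed with the bases at which H3f3b differs in capitals.
H3f3a: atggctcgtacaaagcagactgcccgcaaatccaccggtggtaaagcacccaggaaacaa
H3f3b: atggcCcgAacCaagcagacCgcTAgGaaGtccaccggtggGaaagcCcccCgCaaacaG
The proteins of H3f3a and H3f3b have the same 135 residues, although their coding sequences differ at 95 of 408 bases. The H3.3 protein differs at 4 residues from that of Hist1h3b, shared by 8 genes, and at 5 residues from that of Hist1h3a, shared by 4 genes.

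Sequence sharing was measured on windows of 100 bases, the read length implied by the effective lengths of the RSEM-layout tables. In the kallisto layout, effective lengths of long transcripts were shorter than their lengths by 335 and 333 bases in replicates 1 and 2. Sharing over windows of that size was not measured. A window was called unique when it occurs in no transcript of any other gene. The median share of unique windows was 64.3% over the clustered genes and 100% over the variants. Among variants it was lowest in H2afz, at 69.2%, and H3f3a, at 85.1%, which share windows with genes outside the members. In 26 clustered genes fewer than 50% of windows were unique, 60 shared windows with another member, and Hist2h2aa2 and Hist2h3c1 had no unique window. Linked by shared windows, the members formed 24 groups, 6 of which held 2 or more genes. The largest joined 19 H2A genes, the variant H2afx among them, and others joined 18 Hist1 genes of H1 and H2B, 10 H4 genes and 9 H3 genes. Splits of reads between genes that share windows are the estimates of the deposited programs, so single values of members of either class are uncertain where unique windows are few.

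Each library held 35358140 and 36307291 expected counts assigned to genes, in replicates 1 and 2. The spread between the libraries over 17697 genes was a biological coefficient of variation of 4.66%, in edgeR's terms. The tissue label was checked on markers of excitatory neurons: Slc17a7, Nrgn, Camk2a, the granule cell gene Prox1 and the CA1 gene Wfs1 were all present in both libraries, at 33.7 to 1333 TPM. TPM is abundance per effective transcript length, scaled to 1000000 per library. The RSEM layout names the tables with the column names of RSEM, and the kallisto layout those with the column names of kallisto.

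Clustered genes held most of the histone RNA per length. Their summed TPM was 1303.5 in replicate 1 and 1202.9 in replicate 2, and that of the variants was 461.9 and 450.3. The clustered share of the summed TPM of all members was 73.3% ± 0.76 (SD, n = 2). As reads the difference was smaller, since clustered transcripts are short: 56.1% ± 0.96 (SD, n = 2) of the expected counts of members lay in clustered genes. By kallisto-layout estimated counts the order turned, with 41.6% ± 0.92 (SD, n = 2) in clustered genes. All members together took 31959 counts in replicate 1, or 0.0904% of gene counts with an exact 95% interval of 0.0894% to 0.0914%. In replicate 2 they took 32363 counts, or 0.0891% with an interval of 0.0882% to 0.0901%. These intervals, and those below, cover counting error only.

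H4 held most of the clustered RNA per length in the RSEM layout. The 13 H4 genes summed to 684.2 and 630.5 TPM, which is 52.5% and 52.4% of the clustered total. Clustered H2B followed with 238.9 and 223.2 TPM, H2A with 219.2 and 197.4, H3 with 113.8 and 102.0, and H1 with 47.4 and 49.8. In this order no family overlapped its neighbour, but the order rests on the layout and the unit. By kallisto-layout TPM, H2A was above H2B, at 372.3 and 351.0 against 284.1 and 289.2. By expected counts H2A was again above H2B, at 3428 and 3272 against 3148 and 3062, and H1 was above H3. By kallisto-layout counts H2A, at 2667 and 2556, was close to H4, at 2515 and 2597. By position, the Hist1 genes of chromosome 13 held 79.1% and 78.9% of clustered TPM. The 10 Hist2 genes, within 50.3 kb of chromosome 3, held 15.3% and 15.6%, and the 3 Hist3 genes of chromosome 11 held 5.17% and 5.09%.

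The levels were concentrated in few genes. Only 9 of the 79 members were needed to reach 50% of their summed TPM, counting from the highest, and the 12 highest clustered genes held 62.7% and 64.5% of the clustered sum. Of the 79 members, 68 reached 1 TPM in each library, comprising 59 of 70 clustered and 9 of 9 variant genes, beside 57.8% of all protein-coding genes. All 13 H4 genes passed, against 15 of 20 H2A, 17 of 19 H2B, 9 of 12 H3 and 5 of 6 H1 clustered genes. The median clustered gene had 7.54 TPM, the median variant 36.1 TPM and the median protein-coding gene 3.27 TPM. In the RSEM layout 5 members had no count in either library: Hist1h2aa, Hist1h2aj, Hist1h2an, Hist1h2ba and Hist2h3c1. Of these, Hist1h2ba had 15.4 and 37.6 counts in the kallisto layout.

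**Figure D1:**
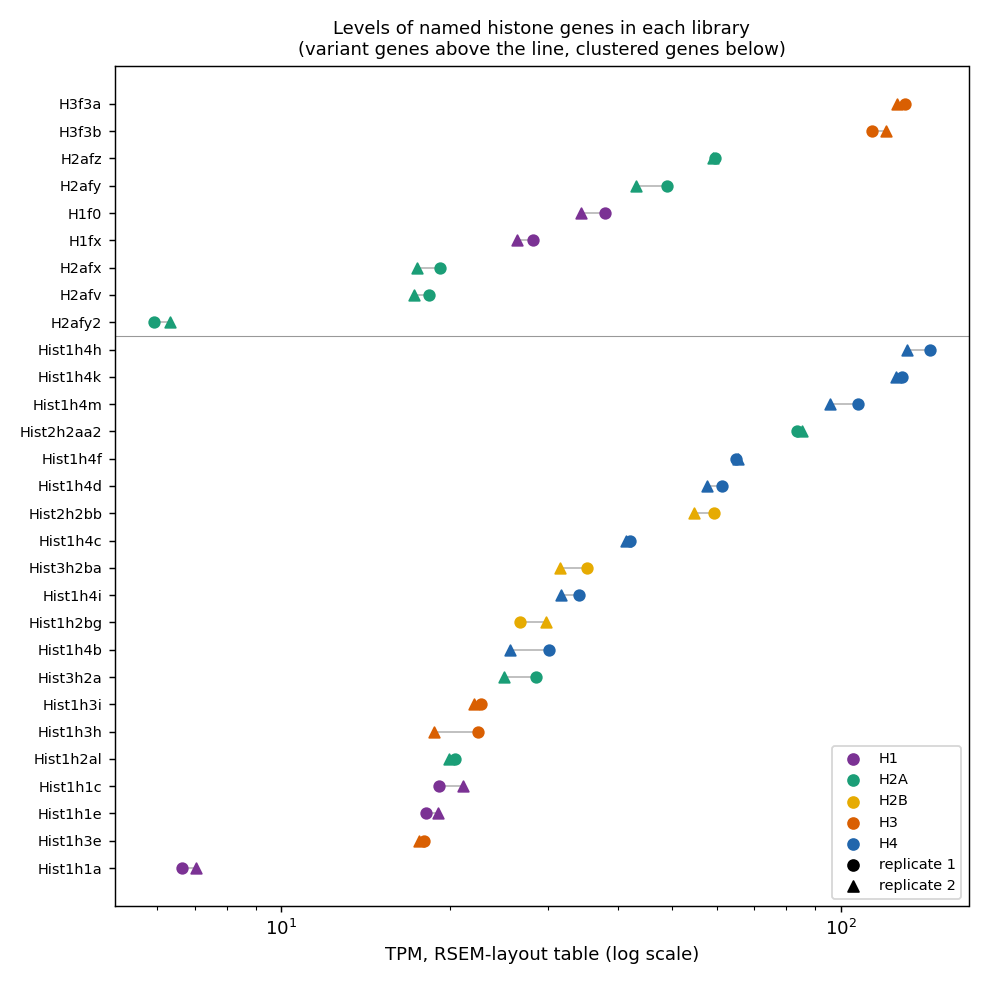
TPM of the 9 variant genes and of 20 clustered genes (the 12 highest and the 3 highest of each family) in replicate 1 (circles) and replicate 2 (triangles), on a log axis, coloured by histone family. Hist1h4h, Hist1h4k, H3f3a and H3f3b all lie above 110 TPM in both libraries, and 8 of the 12 highest clustered genes are H4 genes.

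The highest clustered gene by RSEM-layout TPM was Hist1h4h, a single-exon H4 gene at chr13:23531050-23531519, with 144.3 and 131.6 TPM. The deposited credibility intervals of its TPM, whose level the headers do not give, were 130.7 to 150.4 and 119.6 to 137.5. Hist1h4k, at chr13:21750194-21750505 on the minus strand, followed with 128.5 and 125.5 TPM, and Hist1h4m with 107.3 and 95.5 TPM. In this order each gene's lower library exceeded the next gene's higher one, but the deposited intervals do not separate the ranks fully. Those of Hist1h4k, 108.3 to 141.6 and 107.3 to 136.3, overlap those of Hist1h4h in both libraries. In replicate 1 that of Hist1h4m, 82.8 to 119.6, overlaps that of Hist1h4k, whereas in replicate 2 it does not. By kallisto-layout counts Hist1h4m, at 206.0 and 181.0, was above Hist1h4k, at 53.1 and 90.5. The first rank also rests on the unit. By RSEM-layout expected counts Hist1h4d, at 1626 and 1632, and Hist3h2a, at 1490 and 1393, were above Hist1h4h, at 1365.5 and 1331.9. Further H4 genes were Hist1h4f at 65.0 and 65.5 TPM, Hist1h4d at 61.3 and 57.6, Hist1h4c at 41.9 and 41.4, Hist1h4i at 33.99 and 31.6, and Hist1h4b at 30.2 and 25.7.

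Outside H4, the highest clustered gene by RSEM-layout TPM was Hist2h2aa2, an H2A gene of the chromosome 3 cluster, with 83.7 and 85.2 TPM. Its copy Hist2h2aa1, with the same coding sequence, was given 5.16 and 0.95 TPM. Because no window of Hist2h2aa2 is unique, the sum of the pair is the safer value, at 88.9 and 86.2 TPM. Hist3h2a, an H2A gene with 70.2% of its windows unique and an overlap with Trim17, had 28.5 and 24.96 TPM, and the H2A pseudogene Hist1h2al had 20.4 and 19.9 TPM. Among H2B genes Hist2h2bb had 59.5 and 54.6 TPM, Hist3h2ba 35.1 and 31.5, and Hist1h2bg 26.8 and 29.7. In Hist2h2bb, 54.6% of windows were unique, since a long non-coding gene, Gm42743, overlaps it on the same strand.

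Clustered H3 and H1 genes were lower. Hist1h3i had 22.7 and 22.1 TPM, Hist1h3h 22.5 and 18.7, and Hist1h3e 18.0 and 17.6. The linker histone genes Hist1h1c and Hist1h1e had 19.1 and 21.1 TPM and 18.2 and 19.0 TPM, and Hist1h1a had 6.65 and 7.03. The testis linker histone Hist1h1t was near 0, at 0.10 and 0.09 TPM with 2 counts in each library.

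The variants were led by the H3.3 genes. H3f3a had 130.1 and 126.0 TPM and H3f3b 113.5 and 120.5 TPM, so H3f3a was the higher by TPM in both libraries. By counts the order turned. H3f3b had 3496 and 4010 RSEM-layout counts against 2988 and 3061 for H3f3a. In the kallisto layout H3f3b had 3954 and 4486 counts against 3054 and 3115. The H2A.Z genes followed unevenly: H2afz had 59.7 and 59.0 TPM and its paralog H2afv had 18.4 and 17.3. For macroH2A, a variant with a large extra domain, H2afy had 49.0 and 43.0 TPM and H2afy2 had 5.91 and 6.31. The linker variant H1f0, encoding H1.0 of non-dividing cells, had 37.9 and 34.3 TPM and H1fx, encoding H1.10, had 28.1 and 26.4. H2afx, whose protein is phosphorylated at DNA breaks, had 19.2 and 17.5 TPM. In the order of RSEM-layout TPM, the library values of H2afx and H2afv overlapped and those of no other neighbours did.

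Set against their own families, the variants held the larger part of H3 and H1 RNA but not of H2A. H3f3a and H3f3b together gave 69.5% ± 1.8 (SD, n = 2) of H3 TPM and 81.8% ± 1.3 of H3 counts. The 4 genes with the protein of Hist1h3a held 17.0% and 16.3% of H3 TPM, and the 8 with that of Hist1h3b held 14.8% and 13.0%. In H1, H1f0 and H1fx gave 56.6% ± 2.3 (SD, n = 2) of TPM and 55.8% ± 2.1 of counts. In H2A, the 5 variants gave 41.5% ± 0.74 of TPM but 58.3% ± 1.1 of counts, the order of the classes thus depending on whether length is taken into account. H2B and H4 have no variant among the members. H2afj, an H2A gene outside the member rule, had 29.5 and 26.9 TPM.

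The members differed little between the libraries. Counts were scaled by TMM factors from the whole gene table, and genes with a mean count of 50 or more were tested. The call was a scaled difference over 2-fold. Of 54 members with such a count, 1 was called apart, against 0.384% of 14307 genes. It was lower in replicate 2, against 0.154% of all genes. The median log2 of replicate 2 over replicate 1 was -0.07 over 45 clustered genes, 0.0004 over 9 variants and 0.0004 over all genes tested. Summed over the clustered genes, the scaled count of replicate 2 was 0.965 of that of replicate 1, with an exact 95% interval of 0.945 to 0.985. For the variants the ratio was 1.02, with an interval of 0.996 to 1.04. In bulk tissue, fewer cells of a type and less RNA per cell cannot be told apart.

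The gene called apart was Hist1h2ah, an H2A gene at chr13:22035164-22035568 on the minus strand. It was given 144.7 counts in replicate 1 and 29.1 in replicate 2, or 18.5 and 3.49 TPM. The ratio was 0.195, with an exact 95% interval of 0.126 to 0.293, and the log2 ratio was -2.28. Only 12.1% of its windows are unique, and in the kallisto layout it had 0 counts in both libraries. The 19 H2A genes that share windows with each other, Hist1h2ah among them, summed to 2569 and 2492 counts, a scaled ratio of 0.947 with an interval of 0.896 to 1.00. No sum over a group of sharing members was apart between the libraries.

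**Figure D2:**
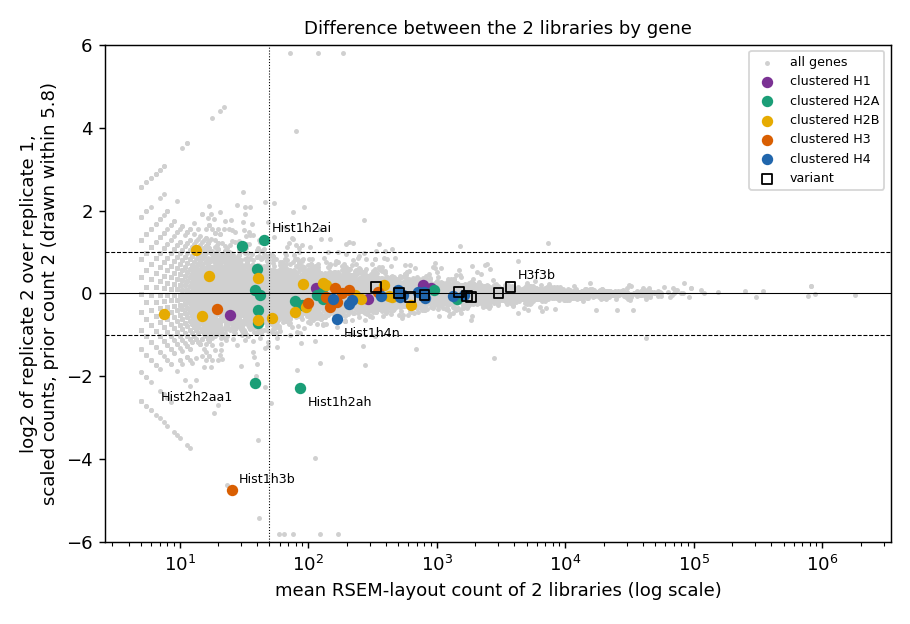
Log2 of replicate 2 over replicate 1 (scaled RSEM-layout counts, prior count 2) against the mean count on a log axis, with all genes in grey, clustered members as coloured points and variants as open squares. Dashed lines mark 2-fold and the dotted line a mean count of 50. Hist1h2ah at -2.28 is the only member to the right of the dotted line and beyond 2-fold.

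Some members below the count minimum were also uneven, in either direction. Hist1h3b, an H3 gene, had 50.6 counts in replicate 1 and 0 in replicate 2, while the kallisto layout gave it 175.3 and 111.0. Hist2h2aa1 had 64.1 and 12.6 counts, against 846.2 and 872.0 in the kallisto layout. Higher in replicate 2 were Hist1h2ai, with 25.01 and 65.95 counts, Hist1h2ad, with 18.3 and 42.7, and Hist1h2bn, with 7.92 and 19.3. All of these have under 50% of their windows unique. The 9 H3 genes among which Hist1h3b shares windows summed to 1284 and 1240 counts. Hist1h4n, tested but not apart, had 199.6 and 134.5 counts, whereas Hist1h4m, with the same coding sequence, had 829.6 and 789.3. Among the variants the widest difference was that of H3f3b, with 3496 and 4010 counts and a ratio of 1.12, whose interval was 1.07 to 1.17.

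Some markers of other tissue and cell types differed between the libraries. The 4 choroid plexus markers summed to 157.9 and 54.3 TPM, led by Ttr at 150.4 and 49.1, and 2 of the 3 with enough counts were called apart. All 5 meningeal fibroblast markers were called apart, with sums of 29.8 and 60.5 TPM, against 0.384% of all genes tested. The 5 erythroid markers summed to 345.2 and 520.6 TPM, with 0 of 5 called apart. The 4 oligodendrocyte markers summed to 1066 and 770.4 TPM, with 0 of 4 called apart. No marker of these lists was at 0 in both libraries, and the part of such tissue and cells in the levels of the members was not tested.

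The 2 layouts gave different counts for clustered genes and similar counts for variants. A gene was called apart between layouts when its counts differed over 2-fold the same way in both libraries and the larger layout mean was at least 50. Of 60 members tested, 27 were apart, against 6.99% of 15232 genes. All 27 were clustered, of 51 tested, and none of the 9 variants was apart. Of the 27, 23 were lower in the kallisto layout, against 2.27% of all genes, and 4 were higher, against 4.71%. Summed over clustered genes, the kallisto layout held 0.583 and 0.584 of the RSEM-layout count in replicates 1 and 2, and over variants 1.05 in each.

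**Figure D3:**
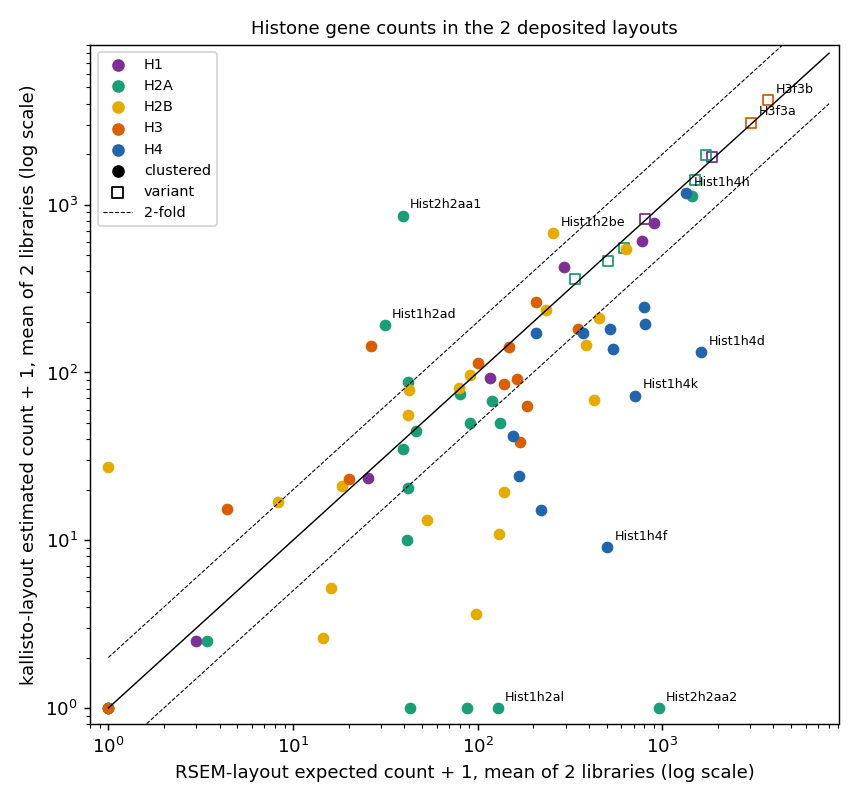
Mean kallisto-layout count against mean RSEM-layout count over the 2 libraries, with 1 added, on log axes. Filled points are clustered genes, open squares are variants, and dashed lines mark 2-fold. The 9 variants lie near the line of equality, while most H4 genes, among them the 10 called apart, lie below the lower dashed line.

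H4 showed the widest gap. The 13 H4 genes held 8038 and 7919 RSEM-layout counts and 2515 and 2597 kallisto-layout counts, ratios of 0.313 and 0.328, and 10 of the 13 were apart. In H2A the ratio of sums was 0.778 and 0.781, in H2B 0.741 and 0.734, in H3 0.763 and 0.770, and in H1 0.946 and 0.878. Hist1h4k had 698.2 and 729.2 RSEM-layout counts against 53.1 and 90.5 in the other, and Hist1h4f had 484.3 and 521.9 against 6.04 and 10.1. Hist1h4h, in contrast, had 1365.5 and 1331.9 counts against 1158 and 1185, and was not apart. The other H4 genes apart, all lower in the kallisto layout, were Hist1h4b, Hist1h4c, Hist1h4d, Hist1h4i, Hist1h4j, Hist1h4m, Hist1h4n and Hist2h4.

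Some gaps closed when genes that share windows were summed, and others did not. Hist2h2aa2 had 916.1 and 997.1 RSEM-layout counts and 0 kallisto-layout counts, and Hist2h2aa1 the reverse pattern, so that the pair held 980.2 and 1010 against 846.2 and 872.0. Likewise the 19 H2A genes that share windows had ratios of 0.802 and 0.806, and the 18 H1 and H2B genes had 0.915 and 0.874. The 10 H4 genes that share windows remained apart, with ratios of 0.376 and 0.384. Of 21 groups tested, 4 were apart: these 10 H4 genes, and Hist1h4d, Hist2h4 and Hist2h2bb, each a group of 1 gene with nothing to sum. Groups linked members only, so Hist2h2bb was not summed with Gm42743, the gene outside the members that shares windows with it. In Hist1h4d and Hist2h4 every window is unique, yet Hist1h4d had 1626 and 1632 counts against 112 and 151, and Hist2h4 had 531 and 509 against 177 and 182. Hist2h2bb had 427.8 and 420.2 against 62.0 and 72.4.

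Outside H4, clustered genes lower in the kallisto layout were, in H2A, Hist2h2aa2, Hist1h2al, Hist1h2ab and Hist1h2ah. In H2B they were Hist2h2bb, Hist3h2ba, Hist1h2bg, Hist1h2bq, Hist1h2br, Hist1h2bl and Hist1h2bk, and in H3 Hist1h3h and Hist1h3i. Hist1h2al and Hist1h2ah, like Hist2h2aa2, had 0 kallisto-layout counts in both libraries. The 4 genes higher in the kallisto layout were Hist2h2aa1, Hist1h2ad, Hist1h3b and Hist1h2be. Hist1h2be had 265.4 and 246.2 RSEM-layout counts and 701.4 and 651.1 kallisto-layout counts. Its transcripts overlap Hist1h1e on the same strand, and Hist1h1e had 848.4 and 950.3 counts against 747.2 and 797.9. Of the 6 clustered H1 genes 4 were tested and 0 were apart, against 6.99% of all genes, too few to read as a trait of H1.

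Short gene models went with low kallisto-layout counts in the members and in other genes. Over genes with 1 transcript and at least 50 counts in the larger layout mean, all 6 clustered genes of up to 400 bases and 136 of 139 other genes of that length had less than 0.5 of the RSEM-layout count in the kallisto layout. From 400 to 500 bases this held for 7 of 13 clustered and 51 of 66 other genes. Above 2000 bases the median ratio was 0.919 over 5 clustered genes and 1.10 over 1615 others. Between 700 and 1000 bases the median was 0.415 over 6 clustered genes and 0.826 over 164 others. Lengths entered the TPM too: the 312-base transcript of Hist1h4k had an effective length of 213 bases in both RSEM-layout tables, and of 72.7 and 70.3 in the kallisto-layout tables of replicates 1 and 2. The 15 clustered genes whose models end at the coding end had summed ratios of 0.191 and 0.235, and the 52 protein-coding ones with longer models had 0.629 and 0.625. The cause of the differences between layouts was not tested.

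**Figure D4:**
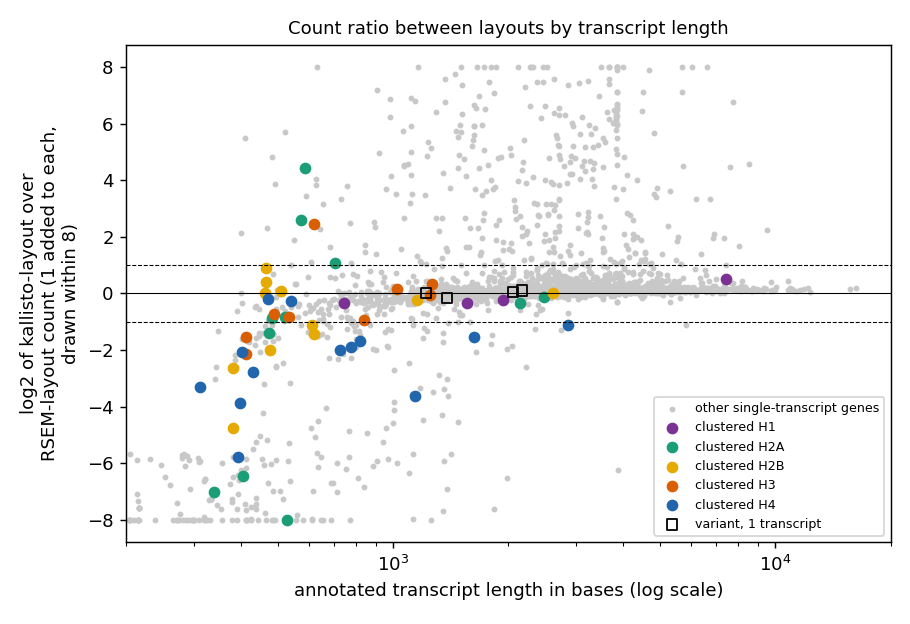
Log2 of the kallisto-layout over the RSEM-layout count (mean of 2 libraries, 1 added to each, drawn within 8) against annotated transcript length on a log axis, for genes with 1 transcript and a larger layout mean of at least 50 counts. Grey points are other genes, coloured points clustered members and open squares variants, and dashed lines mark 2-fold. The 6 clustered genes of up to 400 bases drawn lie below the lower dashed line, and Hist1h4d, at 1138 bases, lies far below it as well.

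Introns are rare among the clustered genes, and spliced transcripts held little of their RNA. Transcripts of 2 or more exons are annotated for 5 of 70 clustered genes, all of H2B: Hist1h2bc, Hist1h2be, Hist1h2bp, Hist1h2bq and Hist1h2br. They held 2.25% and 1.97% of the TPM of clustered genes with a mean of at least 1 TPM. Hist1h2bc, whose single annotated transcript has 2 exons, made up most of this, at 25.5 and 20.0 TPM. In Hist1h2be the spliced transcripts took 73.8% and 71.0% of the gene's RSEM-layout TPM and 87.4% and 86.5% of its kallisto-layout TPM. Hist1h2bq and Hist1h2br went from 2.66% and 0.774% spliced in replicate 1 of the RSEM layout to 100% in the kallisto layout, on 11.9 and 19.1 estimated counts. The single-exon transcripts of this pair were given the same 15.39 TPM in replicate 1 and the same 17.43 in replicate 2. The deposited credibility intervals of the gene totals reached from 0.132 to 27.5 TPM for Hist1h2bq and from 0.42 to 31.1 for Hist1h2br, in replicate 1.

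No variant's total was apart between the layouts, but some were split differently among their transcripts. Of the 5 variants with several transcripts, H2afz and H2afy had the same leading transcript in both layouts and libraries, and H3f3a, H3f3b and H2afv did not. H3f3b-201, a coding transcript of 4 exons, had 44.4 and 48.5 RSEM-layout TPM and 0 by kallisto layout. H3f3b-202, of 6 exons, had 0.23 and 0.11 TPM in the former and 74.0 and 81.2 in the latter. In both, a transcript annotated as non-coding, H3f3b-204, took a large part, at 51.7% and 52.6% and at 36.2% and 38.8%. H3f3a was led by H3f3a-201, at 53.4% and 53.6%, in the RSEM layout and by H3f3a-207, at 60.1% and 61.9%, in the kallisto layout. H3f3a-201 has a coding sequence of 405 bases against 408 in H3f3a-207. H2afv-202 held 58.4% and 61.0% by RSEM layout but 38.5% and 40.1% by kallisto layout. Within each layout the leading transcript was the same in both libraries.

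**Figure D5:**
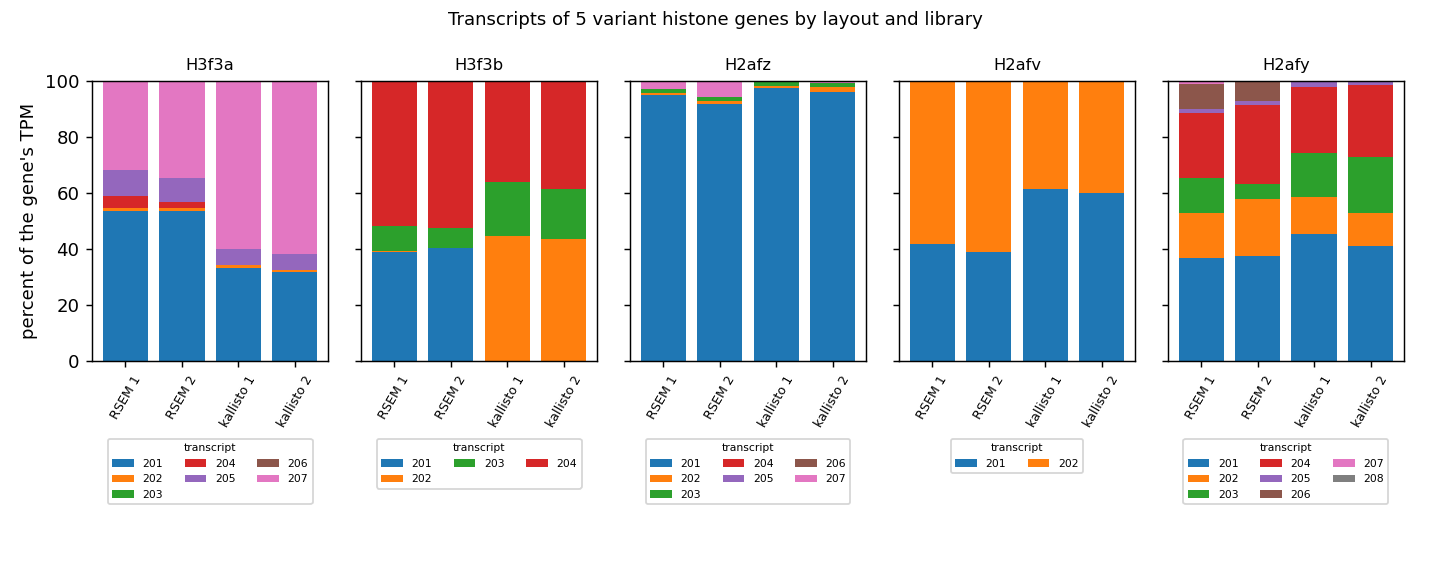
Stacked bars give the percent of the gene's TPM in each annotated transcript of 5 variant genes, for replicates 1 and 2 in the RSEM and kallisto layouts. Bars of one layout resemble each other, while H3f3b-201 holds 39.1% and 40.3% of the RSEM-layout bars and no part of the others.

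No tested gene of the lists for processing or placing histones was apart between the libraries. With 0.384% of all genes apart, this does not distinguish lists of 10 and 18 tested genes from other genes. Of 12 genes for histone mRNA processing, 10 had at least 1 TPM in both libraries, beside 57.8% of all protein-coding genes. The highest were Sympk and Cstf2, of the cleavage machinery, at 49.8 and 40.9 and at 38.6 and 35.4 TPM, and Cpsf3, the nuclease, at 18.9 and 19.1. Slbp, whose protein binds the stem-loop and which was named for that role, had 8.46 and 7.57 TPM. Rnu7, the U7 small nuclear RNA, was listed at 0 in both layouts. With an implied read length of 100 bases, whether so small an RNA could be counted was not tested, so its 0 does not show absence. Zfp473 had 0.32 and 0.09 TPM and was apart between layouts, with 14 and 10 counts against 58.4 and 45.4. It was the only 1 of 11 tested genes of this list apart between layouts, against 6.99% of all genes. None of 10 tested genes of this list was apart between libraries, and their median log2 ratio was 0.02, against 0.0004 for all genes.

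Of 20 histone chaperones and remodellers, 17 had at least 1 TPM in both libraries, beside 57.8% of all protein-coding genes. Nap1l1, a chaperone of H2A and H2B, had 65.2 and 65.0 TPM, Rbbp7 62.5 in both, and Atrx, which places H3.3 with Daxx, 61.3 and 63.3. Asf1b was lowest, at 0.19 and 0.07 TPM. Of 18 genes of S phase and division, 11 had at least 1 TPM in both libraries, beside the same 57.8%. The list's median was 1.87 TPM. Pcna, the replication clamp, had 19.5 and 18.8 TPM, Ccne1 6.32 and 5.26 and Mcm7 6.37 and 5.14, while Mki67, a marker of dividing cells, was lowest at 0.08 and 0.07 TPM on 20 and 13 counts. Tyms was the only gene of that list apart between layouts, with 84 and 86 counts against 302.5 and 326.0. That is 1 of 11 tested genes, against 6.99% of all genes. Among 7 other variant histones, H2afj alone reached 1 TPM in both libraries. Cenpa, the centromeric H3, had 1.86 and 0.90 TPM, and 4 genes of that list were at 0.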

How the data were processed

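The 2 libraries of total RNA were analysed from deposited tables, on build mm10 per the labels. All 55536 versioned gene identifiers in them occur in GENCODE M21, which was used as the annotation. The authors' RSEM-layout tables give, per the file headers, an expected count, a posterior mean count, TPM, FPKM, the percent of a gene's abundance in each transcript and credibility bounds of TPM, treated here as a score. The deposited kallisto-layout tables give an estimated count and TPM per transcript, which were summed by gene. The sources used here do not give the aligner, the program versions or the strandedness of the counting, so reads of overlapping or antisense genes may have been shared. Overlap on the same strand concerns 8 members and on the opposite strand 29.

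Expected counts were rounded and scaled with TMM (edgeR 4.0.16, R 4.3.3) after filterByExpr. DESeq2 1.42.0 size factors were an alternative. Shares have exact Clopper-Pearson intervals and ratios exact conditional binomial intervals (scipy 1.17.1). Sequences came from GENCODE M21 transcripts. Members, lists and tests were chosen with earlier results of these data known. Named were all variants, the 12 highest clustered genes, the 3 highest of each family, every member called apart, and of each list the 3 highest, the lowest and any called apart, with further members named after their values were seen.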

Additional observations from a re-analysis of the deposited data

How the results depend on the processing

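The clustered share of the members' TPM, 73.3%, was 65.5% with kallisto-layout TPM and 56.1% with expected counts, and ranged from 72.8% to 73.8% with 1 library left out. Added after seeing the data, it was 62.2% without members under 50% unique windows, 68.3% without clustered models that end at the stop codon, and 41.6% by kallisto-layout estimated counts, where the variants held the larger share. Members with at least 1 TPM in both libraries, 68, numbered 45 at 5 TPM and 68 to 70 with 1 library left out. Members apart between libraries, 1 (Hist1h2ah), numbered 6 of 70 tested at a mean count of 10 (2.38% of all genes tested), 3 of 54 at 1.5-fold (1.64%), 2 of 56 with posterior mean counts (0.328%; Hist2h2aa1 joined), and 0 at a mean count of 200 (0.133%), with kallisto-layout counts (0.309%) or, added later, over sums of sharing groups. Members apart between layouts, 27 of 60, numbered 14 of 34 tested at a count minimum of 200 (3.37% of all genes), 17 of 60 at 4-fold (5.43%), 4 of 21 groups over sums of sharing groups (added later), and 27 to 29 with 1 library left out. The spliced share of clustered TPM, 2.11%, was 4.72% of counts and 3.20% with kallisto-layout TPM, and 1.97% to 2.25% with 1 library left out. The cause of these shifts was not tested. No paired analysis was possible because there is 1 group. Depth limits members under 50 counts, 25 of 79, which were not tested between libraries.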

Other observations

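Clustered genes often lie head to head, sharing the stretch between their starts. Within 1000 bases there were 15 such pairs, 14 of them of an H2A and an H2B gene, with a median of 250 bases between the starts. Levels within a pair could be far apart: Hist1h2bc had a mean of 22.8 TPM and its partner Hist1h2ac 1.27, and Hist3h2a had 26.7 TPM beside 4.28 for the pseudogene Hist3h2bb-ps. In Hist1h2ag and Hist1h2bj the means were 3.92 and 4.28 TPM. Shared windows among H2A and among H2B genes bear on these single values, as described for the sharing groups.

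Promoter windows of 300 bases from RefSeq (GRCm38.p6), from 250 before to 50 after the start, were matched by symbol or synonym and position for 70 of 79 members. The letters TATAAA, on either strand, occurred in 35 of 62 clustered genes (56.5%), in 1 of 8 variants and in 15.7% of 27025 genes with a window. The letters CCAAT, on either strand, occurred in 53 of 62 clustered genes (85.5%), in 5 of 8 variants and in 41.1% of all. A match is a description of letters and not of a bound site.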
